A study of Rattus norvegicus with 24 samples.

Results

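The genes described here mark medium spiny neurons and their dopamine receptors in the nucleus accumbens (NAc) of the rat: Drd1, Drd2, Drd3, Adora2a, Ppp1r1b, Tac1, Isl1, Foxp1, Bcl11b and Meis2. They were chosen by name and not by a rule on measured values, but with earlier results of these data known. All 10 were found among the 32545 genes with deposited FPKM values (fragment counts scaled to gene length and to sequencing depth). RNA-seq of bulk NAc tissue was available for 24 adult male Sprague Dawley rats, 8 weeks old on arrival, in 6 groups of 4 libraries. In the injection experiment, rats received intraperitoneal lipopolysaccharide (LPS, a bacterial immunostimulant, 250 µg per kg) or saline in 5 injections spread over 2 weeks. These rats were then given intraperitoneal saline or heroin, a week later by the sample labels but 4 days later by the study's methods. These injections were given over 5 days, with heroin rising from 1 to 5 mg per kg. By the labels, the rats were killed 1 h after the last injection. The study's methods place a locomotor test of every injected rat between the last injection and death and count the time from the end of that test. Groups carry both treatments in their names, so that LPS-Saline and Saline-Saline rats had saline in the last days and LPS-Heroin and Saline-Heroin rats had heroin. In the self-administration (SA) experiment, catheterised rats took saline (Saline-SA) or heroin at 0.075 mg per kg per infusion (Heroin-SA) in 10 daily sessions of 6 h and were killed directly after the last one. The SA rats were also housed singly on a reversed light cycle, so the experiments differ in more than the route of the drug. The labels name no transgene or deletion. NAc was dissected whole, core and shell together, and each library was 1 rat.

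Medium spiny neurons are the GABAergic projection neurons that make up most of the striatum, of which the NAc is the ventral part. Direct-pathway cells carry the D1 dopamine receptor (Drd1), which couples to the stimulatory G protein of the striatum, and make substance P from Tac1. Isl1 is a transcription factor tied to their identity. Indirect-pathway cells carry the D2 receptor (Drd2), which inhibits adenylyl cyclase, and an adenosine receptor (Adora2a), which stimulates it. Drd3 encodes a D2-like receptor typical of the ventral striatum. Ppp1r1b encodes DARPP-32, the phosphatase inhibitor on which dopamine signalling converges in both kinds of cell, and Foxp1, Bcl11b (CTIP2) and Meis2 are transcription factors of striatal neurons. In bulk tissue, fewer cells of a type and less RNA per cell cannot be told apart.

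The stretches of 250 bases before the annotated starts of Drd1, Drd2 and Tac1 are shown because the balance of the D1 and D2 receptor transcripts, and the closeness of Tac1 to Drd1, run through the values that follow. They were copied from RefSeq on build GRCr8, not the build of the deposited values, at chr17:10546354-10546603, chr8:58605153-58605402 and chr4:36645333-36645582, all on the plus strand. RefSeq windows were matched for 6 of the 10 genes and were not used here for Adora2a, Ppp1r1b, Bcl11b and Meis2. Capitals mark matches, on either strand, to GGGCGG (GC box), TGACG (the core of a cyclic AMP response element) and TATAAA.
Drd1: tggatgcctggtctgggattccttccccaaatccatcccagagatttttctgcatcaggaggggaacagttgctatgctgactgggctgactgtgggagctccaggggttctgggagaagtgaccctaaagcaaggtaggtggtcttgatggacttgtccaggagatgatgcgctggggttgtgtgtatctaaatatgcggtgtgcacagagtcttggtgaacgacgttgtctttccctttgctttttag
Drd2: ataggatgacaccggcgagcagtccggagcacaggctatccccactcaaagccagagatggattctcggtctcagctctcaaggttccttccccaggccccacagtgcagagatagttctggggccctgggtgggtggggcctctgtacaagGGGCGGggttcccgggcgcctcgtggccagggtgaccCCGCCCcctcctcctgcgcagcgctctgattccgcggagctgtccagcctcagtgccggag
Tac1: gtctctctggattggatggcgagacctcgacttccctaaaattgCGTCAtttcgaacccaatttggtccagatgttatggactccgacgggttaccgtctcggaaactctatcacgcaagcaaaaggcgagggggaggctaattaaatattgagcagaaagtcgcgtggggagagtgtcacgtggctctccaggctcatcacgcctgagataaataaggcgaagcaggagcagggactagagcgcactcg
The Drd2 stretch had 66.0% G and C and 2 GC boxes, 98 and 61 bases before the start, a motif that 30.5% of 33469 windows of this length held. The Tac1 stretch, with 52.4% G and C, held 1 TGACG core on the minus strand 206 bases before the start, against 18.2% of windows with at least 1. The Drd1 stretch had 51.2% G and C, equal to the median of all windows, and none of the 3 motifs. TATAAA was absent from all 3 stretches and stood in 12.9% of windows. These matches describe letters, not binding.

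Libraries held 12312878 to 18850240 reads on genes, and 9 of the 10 genes had at least 80 reads in each library. Drd3 had 9 to 84 reads, so its values carry the largest counting error. Some libraries stood apart by tissue markers. The cortical glutamate transporter gene Slc17a7 ranged from 36.6 to 374 FPKM, and in LPS-Heroin all 4 libraries lay at 280 FPKM or above. Saline-Saline replicate 1 held the choroid plexus transcript Ttr at 318 FPKM, and the next highest was LPS-Heroin replicate 4 at 24.1 FPKM. Of the septal and subcortical glutamatergic markers, Zic4 was at 7.01 FPKM in Saline-Saline replicate 1 and 4.73 FPKM in replicate 4. Slc17a6 was at 16.5 FPKM in Saline-Saline replicate 1. In LPS-Heroin, Zic4 was at 0.366 to 1.83 FPKM and Slc17a6 at 2.53 to 4.96 FPKM. Mitochondrial reads made up 6.82 to 9.10% of the injection libraries and 10.0 to 15.9% of the SA libraries. The part of neighbouring tissue and of mitochondrial reads in the differences given here was tested only as far as the fits named beside them.

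All 10 genes were expressed in every library, and none overlapped the span of another annotated gene. On the FPKM scale, which is per length, Ppp1r1b was by far the most abundant, with a mean of 831 FPKM over 24 libraries, above 99.8% of the 15118 genes with a mean of at least 0.5 FPKM. Tac1 followed at 159 FPKM, Adora2a at 95, Meis2 at 82.9 and Drd1 at 68.2 FPKM. Drd2 had a mean of 47.0 FPKM, Bcl11b 35.3, Foxp1 19.7, Isl1 4.87 and Drd3 1.67 FPKM. The coefficient of variation between rats of a group had a median over the groups of 9.42% for Meis2 and 11.4% for Bcl11b, the steadiest of the 10, against 32.1% for Isl1 and 36.7% for Drd3. Saline-Saline spread more than any other group for Drd1 (36.5%), Drd2 (32.1%), Adora2a (32.2%), Ppp1r1b (32.9%) and Tac1 (35.3%).

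**Figure D1:**
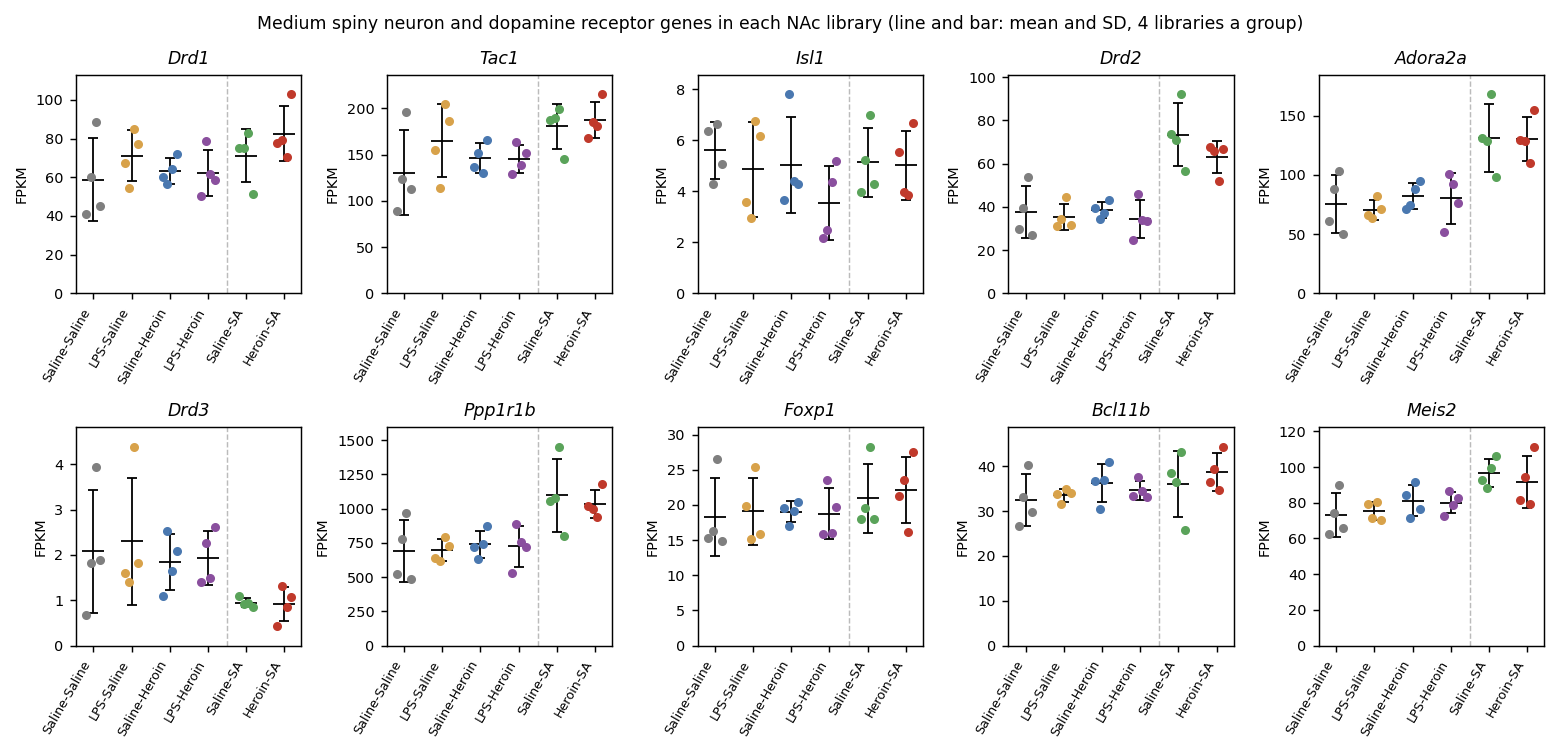
FPKM of the 10 genes (vertical axes, each from 0) in each of 24 libraries, by group, with a line and bar for the mean and SD of 4 libraries. Left of the dashed line is the injection experiment, right of it the SA experiment. Drd2 lies between 24.6 and 53.8 FPKM in the injection libraries and between 52.1 and 91.9 FPKM in the SA libraries.

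Of the direct-pathway genes, Drd1 (chr17:11101306-11103541, plus strand, rn6) was at 41.1, 60.3, 88.5 and 45.4 FPKM in Saline-Saline and at 67.5, 54.4, 85.1 and 77.3 FPKM in LPS-Saline. In Saline-Heroin it was at 60.1, 56.4, 64.2 and 72.0 FPKM, and in LPS-Heroin at 50.5, 78.8, 61.7 and 58.6 FPKM. Saline-SA held 75.3, 74.9, 83.0 and 51.2 FPKM, and Heroin-SA 77.8, 79.2, 70.4 and 103 FPKM. The groups overlapped throughout: ordered by mean, from 82.6 ± 14.0 FPKM (SD, n = 4) in Heroin-SA to 58.8 ± 21.4 FPKM (SD, n = 4) in Saline-Saline, no group lay clear of the next. Saline-Saline replicate 3 reached 88.5 FPKM, higher than any other injection library.

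Tac1 (chr4:33638709-33646819, plus strand, rn6) followed the same order of groups as Drd1, from 187 ± 19.9 FPKM (SD, n = 4) in Heroin-SA and 181 ± 24.1 FPKM (SD, n = 4) in Saline-SA, through 165 ± 39.8 FPKM (SD, n = 4) in LPS-Saline, to 130 ± 46.0 FPKM (SD, n = 4) in Saline-Saline. In Saline-Saline its values were 89.0, 123, 196 and 113 FPKM, and again replicate 3 was the highest and replicate 1 the lowest. Isl1 (chr2:48487736-48501436, minus strand, rn6) had the highest mean in Saline-Saline and the lowest in LPS-Heroin. Saline-Saline held 6.38, 4.30, 6.64 and 5.08 FPKM, LPS-Saline 3.59, 2.96, 6.74 and 6.16 FPKM, and Saline-Heroin 3.65, 7.80, 4.42 and 4.29 FPKM. LPS-Heroin held 2.18, 2.49, 4.37 and 5.18 FPKM, Saline-SA 3.98, 5.24, 7.01 and 4.30 FPKM, and Heroin-SA 5.56, 3.97, 3.85 and 6.70 FPKM. Neighbouring groups overlapped in the order of both genes.

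Of the indirect-pathway genes, Drd2 (chr8:53678777-53743642, plus strand, rn6) was at 29.8, 39.6, 53.8 and 27.1 FPKM in Saline-Saline and at 31.0, 34.6, 44.3 and 31.4 FPKM in LPS-Saline. With heroin it was at 39.3, 34.2, 37.1 and 43.2 FPKM (Saline-Heroin) and at 24.6, 46.0, 33.8 and 33.6 FPKM (LPS-Heroin). In the SA experiment it was at 73.8, 70.9, 91.9 and 56.5 FPKM in Saline-SA and 67.5, 65.8, 52.1 and 66.5 FPKM in Heroin-SA. The 4 injection groups overlapped each other, as did both SA groups. Heroin-SA, the lower of the SA groups by mean, lay clear of Saline-Heroin, the highest of the injection groups by mean. It overlapped Saline-Saline, where replicate 3 was at 53.8 FPKM. For this gap, and those between SA and heroin-injected groups given below, the share of all genes without overlap was not counted. Between the saline controls of the experiments, 28.3% of all genes did not overlap.

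Adora2a (chr20:14265252-14282873, minus strand, rn6) showed the same step. Its means were 131 ± 28.6 FPKM (SD, n = 4) in Saline-SA and 130 ± 18.4 FPKM (SD, n = 4) in Heroin-SA, against 70.5 ± 8.42 FPKM (SD, n = 4) in LPS-Saline to 82.0 ± 11.04 FPKM (SD, n = 4) in Saline-Heroin. Heroin-SA did not overlap Saline-Heroin, the next group, and all other neighbours overlapped. One SA library, Saline-SA replicate 4 at 97.8 FPKM, was lower than the highest injection library, Saline-Saline replicate 3 at 103 FPKM.

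Drd3 (chr11:61822077-61874327, minus strand, rn6) had the opposite order. It was at 0.671, 1.83, 3.94 and 1.89 FPKM in Saline-Saline and at 1.60, 1.40, 4.39 and 1.82 FPKM in LPS-Saline. With heroin it was at 1.1, 2.53, 1.65 and 2.09 FPKM (Saline-Heroin) and at 1.40, 2.26, 1.49 and 2.62 FPKM (LPS-Heroin). Saline-SA held 1.09, 0.923, 0.935 and 0.852 FPKM and Heroin-SA 0.441, 1.31, 0.855 and 1.08 FPKM. Saline-Heroin lay just clear of Saline-SA, with 26 to 60 reads against 19 to 28. Saline-Saline replicate 1, with 16 reads, was as low as the SA libraries.

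Of the genes shared by both kinds of spiny neuron, Ppp1r1b (chr10:86303727-86312762, plus strand, rn6) was at 488 to 970 FPKM in the injection libraries and at 803 to 1452 FPKM in the SA libraries, and Heroin-SA again lay clear of Saline-Heroin. Meis2 (chr3:107559997-107760589, minus strand, rn6) ranged from 62.2 to 91.4 FPKM in the injection libraries and from 79.1 to 111 FPKM in the SA libraries. Foxp1 (chr4:131366744-131694755, minus strand, rn6) ranged from 14.8 to 26.5 and from 16.2 to 28.3 FPKM, and Bcl11b (chr6:131834097-131926272, minus strand, rn6) from 26.6 to 40.9 and from 25.8 to 44.4 FPKM. For Foxp1 and Bcl11b the ranges of the experiments largely coincided.

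Whether LPS, heroin by injection or their combination changed these genes was asked first. A gene was called when its unadjusted p in limma was at most 0.05 and its fold change at least 1.3 (0.38 on the log2 scale), on log2(FPKM + 0.1). None of the 10 was called in LPS-Saline against Saline-Saline, where 2.36% of all genes tested were, or in Saline-Heroin against Saline-Saline, where 3.07% were. In both comparisons 0 of the 10 had an unadjusted p under 0.05 in limma, and limma-voom on recovered reads also called 0. Log2 fold changes after LPS ran from -0.26 for Isl1 to 0.37 for Tac1, and after heroin from -0.19 for Isl1 to 0.22 for Tac1. The median over the 10 genes was 0.06 and 0.15, against 0.01 and 0.00 over all genes tested.

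The intervals set how large a change could have gone unseen. For Drd2 the log2 fold change was -0.05 after LPS (95% interval -0.53 to 0.43) and 0.08 after heroin (-0.37 to 0.53). For Drd1 it was 0.32 after LPS (-0.21 to 0.85) and 0.16 after heroin (-0.33 to 0.65). For Adora2a it was -0.05 (-0.53 to 0.43) and 0.17 (-0.32 to 0.65). Meis2 and Bcl11b had the narrowest intervals, Bcl11b with 0.06 after LPS (-0.20 to 0.33), and Drd3 the widest, with 0.22 (-0.94 to 1.38). Outside Drd3 and Isl1, the intervals reached at most a 1.92-fold higher level after LPS and a 1.62-fold higher level after heroin.

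Both comparisons share the Saline-Saline libraries, and their result for the direct-pathway genes turned on replicate 3 of that group. Without it, Drd1 and Tac1 were called higher in LPS-Saline (log2 fold changes 0.54 and 0.59) and in Saline-Heroin (0.38 and 0.44). Saline-Saline replicate 3 had the highest level of all 10 genes in its group and the lowest Slc17a7, 73.8 FPKM. Without Saline-Heroin replicate 2, which had the lowest Slc17a7 of its group (128 FPKM), Isl1 was called lower in Saline-Heroin, by a log2 fold change of -0.42. That library also had the highest Zic4 (3.84 FPKM) and Slc17a6 (6.93 FPKM) of its group. The part of these markers was not tested.

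In LPS-Heroin against Saline-Saline, 1 of the 10 genes was called, where 5.42% of all genes tested were called and 2.44% were called lower: Isl1, with 3.55 ± 1.45 FPKM (SD, n = 4) against 5.60 ± 1.102 FPKM (SD, n = 4). Its log2 fold change was -0.71 (standard error 0.28, 95% interval -1.35 to -0.07), the groups overlapped, and the adjusted p was 0.396 in limma. The other 9 genes ran from -0.11 for Drd2 to 0.22 for Tac1, none reached an unadjusted p of 0.05, and limma-voom also called 1 gene. The call for Isl1 was lost without Saline-Saline replicate 1 (-0.64) or replicate 3 (-0.62) and without LPS-Heroin replicate 1 (-0.51) or replicate 2 (-0.57). Without Saline-Saline replicate 3, Tac1 was called in its place (0.43).

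Markers of cortical glutamatergic neurons also differed in this comparison, where 452 of 15134 genes tested were called higher. All 7 measured genes of that list, among them Slc17a7, Tbr1 and Emx1, were called higher in LPS-Heroin. The median log2 fold change of the list was 1.13. It was also 0.58 in LPS-Saline and 0.60 in Saline-Heroin against Saline-Saline, and 0.46 in Heroin-SA against Saline-SA. In Saline-SA against Saline-Saline it was -0.18. None of these further comparisons called Isl1 or a gene of the list. The summed level of the list was 466 to 538 FPKM in LPS-Heroin and 124 to 352 FPKM in Saline-Saline, and none of the 7 was at 0 in any library. Over 24 libraries with group means removed, Isl1 was lower where the mean log2 level of the list was higher (Pearson r = -0.68, Spearman rho = -0.60, n = 24, permutation test, adjusted p = 0.0003 and 0.0049 over the 10 genes). The r was -0.65 without the 2 libraries farthest from the median of the list, -0.69 in the injection experiment and -0.79 in the SA experiment. Foxp1 had r = -0.60 (permutation test, adjusted p = 0.0292) but rho = -0.37 (permutation test, adjusted p = 0.448), and the other 8 genes had an r between -0.28 and -0.46. With the list as a covariate, chosen after seeing the data, the log2 fold change of Isl1 was -0.28 and no longer called. The summed level of the list did not overlap between these groups, so this fit cannot tell the list from the treatment. Of 7 septal and subcortical glutamatergic markers, 2 were called lower in LPS-Heroin, Slc17a6 and Zic4, and 3 had estimates above 0. The share of all genes called lower was 2.44%. The part of these markers in the Isl1 difference was not tested.

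LPS-Heroin was also set against each single treatment. None of the 10 genes was called against LPS-Saline, where 2.29% of all genes were, or against Saline-Heroin, where 2.2% were. No unadjusted p in limma was under 0.05 in either, and limma-voom called 0. The estimate for Isl1 was again the lowest of the 10, at -0.45 (95% interval -1.23 to 0.33) and -0.52 (-1.25 to 0.21). The narrow interval of Tac1 against Saline-Heroin ran from -0.22 to 0.22, and Drd2 was at -0.05 and -0.19.

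In the fit of all 16 injection libraries, the effect of LPS averaged over heroin called none of the 10 genes (background 1.75%), the effect of heroin averaged over LPS called none (2.45%), and their interaction called none (2.31%). No gene reached an unadjusted p of 0.05 in limma in these 3, and limma-voom called 0. Averaged over the other treatment, Drd1 had a log2 difference of 0.14 (95% interval -0.17 to 0.46) with LPS and -0.01 (-0.32 to 0.30) with heroin, and Drd2 had -0.12 (-0.43 to 0.19) and 0.01 (-0.30 to 0.32). The interaction estimates of all 10 genes were below 0, from -0.02 for Adora2a to -0.37 for Tac1. These genes vary together from rat to rat, so their shared sign is not 10 separate observations, and all intervals held 0. Without Saline-Saline replicate 3 the interaction was called for Tac1 (-0.59) and Drd1 (-0.57), and without LPS-Heroin replicate 4 the LPS effect was called for Isl1 (-0.49).

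**Figure D2:**
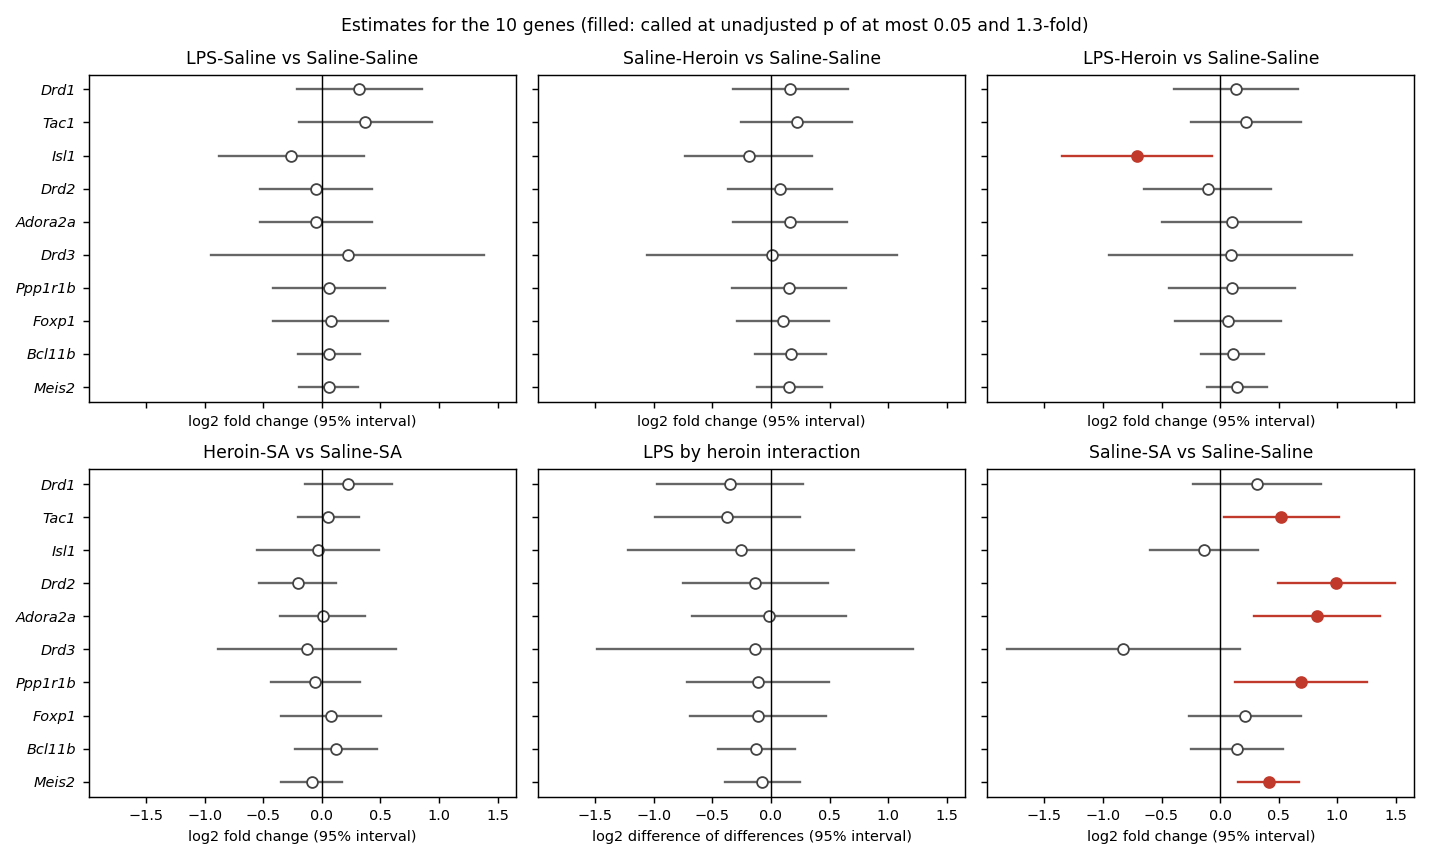
Log2 fold changes (horizontal axes, with 95% intervals from limma) of the 10 genes (rows) in 5 comparisons and in the LPS by heroin interaction. Filled red points were called. Isl1 is the only filled point among the treatment comparisons, and 5 genes are filled in Saline-SA against Saline-Saline.

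In Heroin-SA against Saline-SA, the comparison for heroin that rats took themselves, none of the 10 genes was called, where 5.44% of all genes tested were. In limma 0 had an unadjusted p under 0.05, and limma-voom called 0. Drd1 had the highest estimate, 0.22 (95% interval -0.15 to 0.60), and Drd2 the lowest, -0.20 (-0.53 to 0.12). Adora2a was at 0.01 (-0.36 to 0.37), Tac1 at 0.06 (-0.20 to 0.32) and Ppp1r1b at -0.06 (-0.44 to 0.33). The SA heroin effect did not differ by test from the injected heroin effect in any of the 10 genes (0 called, background 4.51%), and the estimate of that difference was -0.28 (-0.86 to 0.29) for Drd2 and 0.06 (-0.54 to 0.66) for Drd1. Route, dose, time and experiment cannot be told apart in it.

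Other genes of the same pathways were taken from lists of direct-pathway (8 genes), indirect-pathway (7 measured), shared spiny neuron (16) and dopamine receptor signalling genes (23 tested). No shared spiny neuron gene was called in any of the treatment comparisons. In Heroin-SA against Saline-SA 1 of 23 signalling genes was called, below the 5.44% of all genes: Rgs4, a regulator of G protein signalling, with a log2 fold change of 0.40 (adjusted p = 0.376 in limma). In LPS-Heroin against Saline-Saline, where 5.42% of all genes were called, 1 of 23 signalling genes was called, again Rgs4, at 0.58 (adjusted p = 0.186 in limma) with no overlap, where 6.86% of genes did not overlap. There 2 of 7 indirect-pathway genes were called, the transcription factor Six3 lower (-0.56) and the kainate receptor gene Grik3 higher (0.48). In LPS-Heroin against Saline-Heroin (background 2.2%) 1 of 7 was called, Grik3 (0.40), and in LPS-Saline against Saline-Saline (background 2.36%) 1 of 7, the transcription factor Sp9 (-0.43). For LPS averaged over heroin (background 1.75%) 1 of 8 direct-pathway genes was called, Ebf1 (-0.47). No adjusted p of these genes in limma was at most 0.05.

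The largest differences lay between the saline controls of the experiments. In Saline-SA against Saline-Saline, 5 of the 10 genes were called, all higher, where 22.7% of all genes tested were called and 8.46% were called higher. Experiment, surgery, housing, light cycle, self-administration training and time of death all differ between these groups and cannot be told apart. Drd2 differed most, with 73.3 ± 14.6 FPKM (SD, n = 4) against 37.6 ± 12.1 FPKM (SD, n = 4), and its groups did not overlap, as was so for 28.3% of genes. The log2 fold change of Drd2 was 0.99 with a standard error of 0.22, and its adjusted p in limma was 0.0132. Adora2a had 0.83 (standard error 0.24, adjusted p = 0.0351 in limma) and Meis2 0.41 (standard error 0.12, adjusted p = 0.0318 in limma). Ppp1r1b had 0.69 (adjusted p = 0.0748 in limma) and Tac1 0.52 (adjusted p = 0.114 in limma). By an adjusted p of at most 0.05 in limma, which 23.7% of genes reached, 3 of the 10 were called: Drd2, Adora2a and Meis2.

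The other 5 genes were not called. Drd1 had a log2 fold change of 0.32 (95% interval -0.23 to 0.87), Foxp1 0.21 (-0.26 to 0.69), Bcl11b 0.14 (-0.25 to 0.53) and Isl1 -0.14 (-0.60 to 0.33). Drd3 had -0.83 (-1.82 to 0.17), against the direction of Drd2. Single libraries moved several of these calls. The calls for Ppp1r1b, Tac1 and Meis2 were lost without Saline-Saline replicate 1 (0.58, 0.36 and 0.34) or replicate 4 (0.55, 0.48 and 0.37). That for Tac1 was also lost without Saline-Saline replicate 2 (0.52) and Saline-SA replicate 1 (0.50), replicate 2 (0.50) and replicate 3 (0.47). Without Saline-SA replicate 3 that for Ppp1r1b was lost (0.55), and without Saline-SA replicate 4 that for Meis2 (0.37). Drd3 was called lower without Saline-Saline replicate 1 (-1.25, adjusted p = 0.0308 in limma), and Drd1 (0.54) and Foxp1 (0.41) were called higher without Saline-Saline replicate 3. Drd2 and Adora2a stayed called with any 1 library left out, at 0.85 to 1.18 and 0.65 to 1.00.

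The comparison was repeated relative to the level of other spiny neuron genes, which is not a measure of cell number. Each library was centred on the mean log2 level of the shared spiny neuron list without the 10 genes, which moved the median of all genes in this comparison from 0.01 to -0.37. Drd2 was then 0.61 higher in Saline-SA (adjusted p = 0.0190 in limma) and Adora2a 0.45 higher (adjusted p = 0.0808 in limma), Drd3 was 1.21 lower on the log2 scale (adjusted p = 0.0575 in limma), and Isl1 0.52 lower (adjusted p = 0.148 in limma). Drd1 was at -0.06, Meis2 at 0.03, Tac1 at 0.14 and Ppp1r1b at 0.31, none of them called.

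The lists are read against the 8.46% of all genes called higher and the 14.3% called lower in this comparison. In them, 7 of 16 shared spiny neuron genes were called higher in Saline-SA and 0 lower, with a median log2 fold change of 0.41 against 0.01 over all genes tested. Besides Ppp1r1b and Meis2 these included Rasd2 (0.86), a striatal small GTPase, Rgs9 (0.91), a striatal regulator of G protein signalling, Gng7, a subunit of the striatal G protein, and Rarb, a retinoic acid receptor. Of the direct-pathway genes, 3 of 8 were called higher, Tac1, the muscarinic M4 receptor gene Chrm4 (0.64, adjusted p = 0.0377 in limma) and the dynorphin gene Pdyn (0.57), and Eya1 was called lower (-0.51). Of the indirect-pathway genes, 2 of 7 were called higher, Drd2 and Adora2a, and Grik3 lower (-0.73, adjusted p = 0.00264 in limma). The enkephalin gene Penk, with 541 ± 158 FPKM (SD, n = 4) against 417 ± 159 FPKM (SD, n = 4), was not called (0.41, 95% interval -0.24 to 1.05). Of the signalling list, 4 of 23 were called higher, Ppp1r1b, Gng7, Rgs9 and Drd2.

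Genes of other cells also differed between these controls. Against 14.3% of all genes called lower, 5 of 7 genes of the oligodendrocyte list were called lower and 2 of 7 of the astrocyte list, among them Slc1a2 (-1.77). Against 8.46% called higher, 3 of 4 endothelial genes were called higher. No gene of the cortical list was called there. With that list as a covariate, 4 of the 10 genes stayed called, without Tac1, and with the values scaled to non-mitochondrial reads, the same 5 were called, Drd2 at 1.08.

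The balance of the D1 and D2 receptor transcripts was described by the ratio of Drd1 to Drd2 on the FPKM scale within each library, in which a scaling common to both transcripts cancels. The ratio was 1.38, 1.52, 1.64 and 1.67 in Saline-Saline rats and 2.18, 1.58, 1.92 and 2.46 in LPS-Saline rats. With heroin it was 1.53, 1.65, 1.73 and 1.67 (Saline-Heroin) and 2.05, 1.71, 1.82 and 1.74 (LPS-Heroin). In the SA experiment it was 1.02, 1.06, 0.902 and 0.906 in Saline-SA and 1.15, 1.203, 1.35 and 1.55 in Heroin-SA. Drd1 thus exceeded Drd2 in every injection library, the transcripts were near equal in Saline-SA, and Heroin-SA lay clear above Saline-SA and overlapped the injection libraries. This is a ratio of a single pair of transcripts, and the mean log2 level of the whole direct-pathway list minus that of the indirect-pathway list was only 0.0031 higher in Heroin-SA than in Saline-SA. LPS-Heroin, at 1.83 ± 0.154 (SD, n = 4), did not overlap Saline-Saline, at 1.55 ± 0.134 (SD, n = 4), whereas LPS-Saline, at 2.03 ± 0.377 (SD, n = 4), did. No test was made of this ratio, because its genes were picked with results of these data known.

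**Figure D3:**
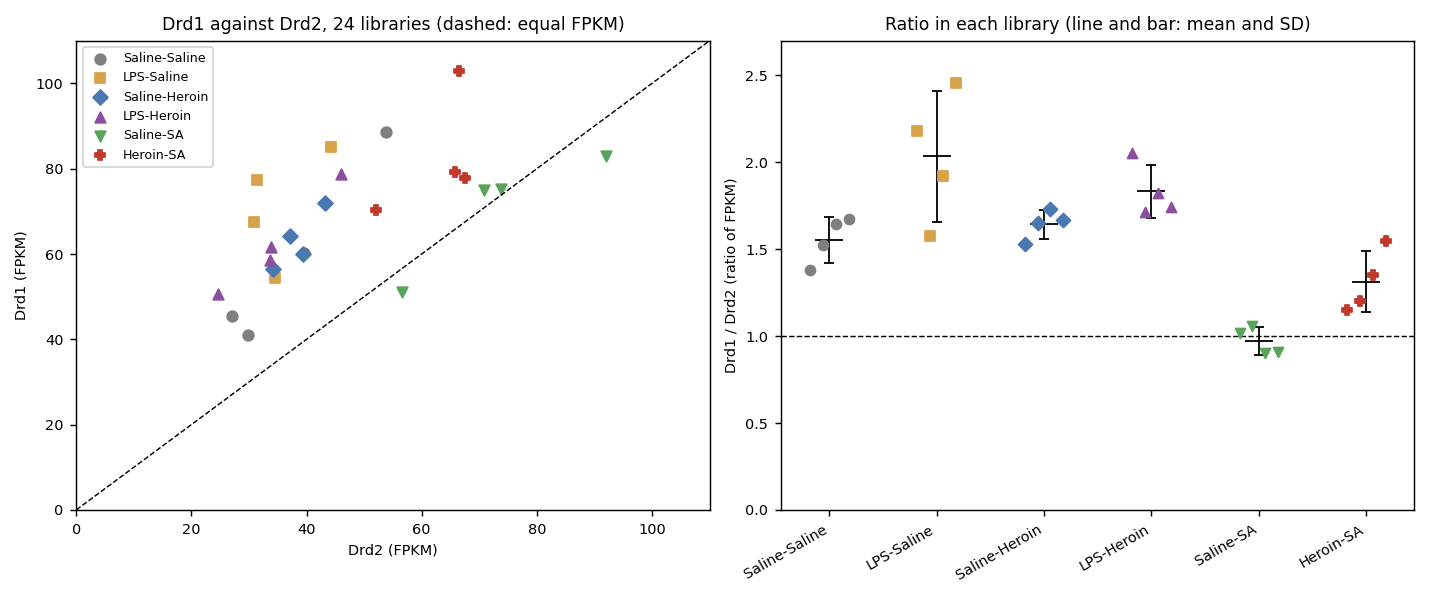
Left, Drd1 against Drd2 in FPKM for 24 libraries, with a dashed line where they are equal. Right, their ratio in each library by group, with a line and bar for the mean and SD of 4. Saline-SA sits at 0.902 to 1.06, Heroin-SA at 1.15 to 1.55 and the 16 injection libraries at 1.38 to 2.46.

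The balance was also described over more genes. Isl1 is counted with the direct pathway here, but with group means removed it followed the other direct-pathway genes loosely. Its r was 0.32 with Drd1 and 0.44 with Tac1, against 0.90 between Drd1 and Tac1. The mean log2 level of Drd1, Tac1 and Isl1 minus that of Drd2 and Adora2a was -0.59 ± 0.23 (SD, n = 4) in Saline-Saline rats and -0.40 ± 0.31 in LPS-Saline rats. With heroin it was -0.65 ± 0.23 (Saline-Heroin) and -0.71 ± 0.27 (LPS-Heroin). It was -1.27 ± 0.09 in Saline-SA and -1.09 ± 0.13 in Heroin-SA, and Saline-SA lay below every injection library. With the whole direct-pathway and indirect-pathway lists, however, the score was -1.01 in both Saline-SA and Saline-Saline, a difference of 0.0011, against -0.68 with the 5 genes. Heroin-SA was also at -1.01 with the whole lists, and was 0.18 above Saline-SA with the 5 genes. The whole lists gave -0.96 in Saline-Heroin and -0.97 in LPS-Heroin, above Saline-Saline, whereas the 5 genes put both below it. LPS-Saline was at -0.82 with the whole lists.

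Within groups, the genes varied together from rat to rat. Of the 45 pairs, 45 had a positive Pearson r over 24 libraries with group means removed, with a median of 0.68, and 29 had an adjusted p under 0.05 (permutation test within groups, adjusted over the 45 pairs). The closest pair was Adora2a and Ppp1r1b (r = 0.96, rho = 0.94, permutation test, adjusted p = 6.43e-05, which rests on the smallest p the permutations can give, 1e-05). Drd1 and Drd2, which mark different cells, had r = 0.85 and rho = 0.80 (permutation test, adjusted p = 0.000225 and 0.000796), with 0.87 in the injection and 0.82 in the SA experiment, and 0.80 without the 2 libraries farthest from the median of Drd1. Drd1 and Tac1 had r = 0.90 and Drd2 and Adora2a r = 0.91. Isl1 had an r of 0.10 to 0.44 with the other 9 genes over all libraries and no adjusted p under 0.05. Within the injection experiment its r ran from -0.15 with Bcl11b to 0.44 with Drd3. Within the SA experiment it was higher with most genes, at 0.67 with Drd1, 0.68 with Drd2, 0.77 with Adora2a and 0.82 with Foxp1, and -0.23 with Drd3, and the difference between experiments was not tested.

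When each library was centred on the shared spiny neuron list, a step chosen after seeing the data, 19 of 45 pairs were positive and the median r was -0.09. Only Adora2a and Ppp1r1b kept an adjusted p under 0.05 (r = 0.79, rho = 0.79, permutation test, adjusted p = 0.00135 and 0.00045), with r = 0.68 without the 2 farthest libraries. Drd1 and Drd2 then had r = 0.17 and rho = 0.14 (permutation test, adjusted p = 0.780 and 0.865). The same-pathway pairs then ranged from r = -0.22 (Drd1 and Isl1) through 0.19 (Tac1 and Isl1) and 0.56 (Drd2 and Adora2a) to 0.57 (Drd1 and Tac1). The value for Drd1 and Tac1 was 0.31 without the 2 farthest libraries, with a rho of 0.31. The pairs across pathways ranged from r = -0.37 (Drd2 and Isl1) and -0.33 (Drd2 and Tac1) to 0.38 (Drd1 and Adora2a). None of these pairs had an adjusted p under 0.05 in the permutation test, and the ranges of same-pathway and cross-pathway pairs overlapped. The part of the dissection in this shared variation was not tested.

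**Figure D4:**
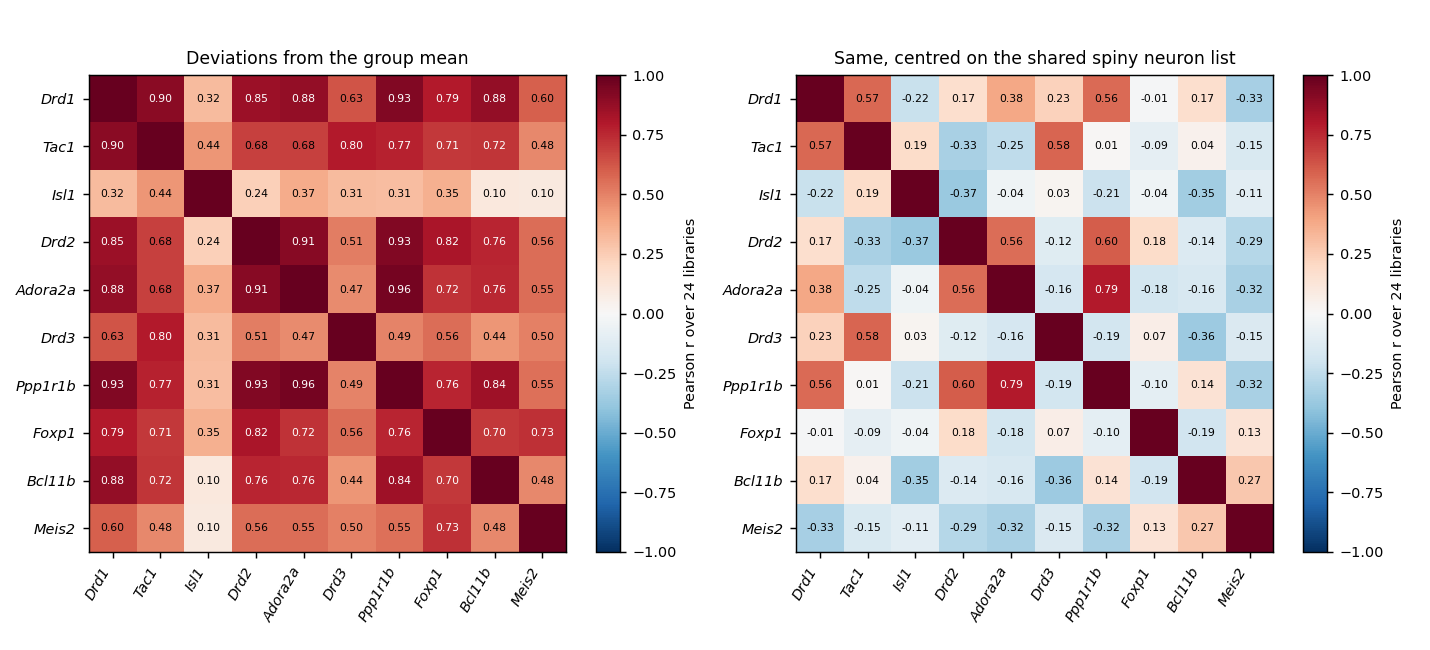
Pearson r over 24 libraries between the 10 genes, from deviations from the group means (left) and after centring each library on the shared spiny neuron list (right). The color scale runs from -1 to 1. All 45 pairs are positive on the left, and 19 are on the right.

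Over all 24 libraries, with group differences included, the genes most like Drd1 among 11976 protein-coding genes included Pde1b (r = 0.94), a phosphodiesterase, and Adcy5 (r = 0.92), an adenylyl cyclase of the striatum. Those most like Drd2 were Ramp1 (r = 0.95), a receptor activity-modifying protein, Adora2a (r = 0.95) and Rgs9 (r = 0.95). For Adora2a they were Ppp1r1b (r = 0.97), Gng7 (r = 0.97) and Ramp1 (r = 0.97). For Drd2, r with Ramp1 was 0.88 in the injection and 0.71 in the SA experiment, both lower than the pooled value. Drd3 had lower values, 0.81 with Dis3, 0.80 with Pdxk and 0.79 with Rprd2, and its r with Pdxk was 0.77 in the injection and 0.38 in the SA experiment. These are descriptions of likeness over libraries that share depth and dissection.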

How the data were processed

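Directional polyadenylated RNA libraries were trimmed with fastp, aligned with HISAT2 to rn6 and counted with featureCounts, per the submitters' processing notes and the paper's methods. Tool versions and whether counting used the strand are not given in the sources used here. The authors deposited FPKM values, 1 column per rat. FPKM times gene length was a whole multiple of 1 step per library for 100% of values (tolerance 0.01 of a read), which gave the read numbers. Groups came from the labels. No pair of libraries of a group agreed within sampling noise (chi-square per degree of freedom at least 7.26).

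log2(FPKM + 0.1) of genes with a mean of at least 0.5 FPKM was fitted with limma 3.58.1 (trend) in R 4.3.3, each comparison on its own groups, with Benjamini-Hochberg adjustment over all genes. The fit was tested on simulated counts with a common spread for all genes, so that test does not show its power at the spread of these data. The limma p-values set a group difference against the spread between libraries, each of 1 rat, with variances moderated over all genes. Correlations used 100000 permutations within groups. By rule, fold changes were given for members with an unadjusted p of at most 0.05 and intervals for the rest, for at most 3 called genes of smallest p per spiny neuron or signalling list, and the 3 protein-coding genes of highest r for each receptor. Other named list genes, Penk, Chat and Nos1 among them, were named after their values were seen. The 10 genes and all lists were chosen with earlier results of these data known. Deviations of same-numbered rats from their group means correlated at r = -0.15 to 0.15 over the pairwise comparisons. Alternatives changed the pseudocount, filter, scaling, fit and libraries. Some list genes are not reported here.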

Additional observations from a re-analysis of the deposited data

Results flagged for a closer look

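In 4 of 60 sets of 4 libraries (10 genes in 6 groups), 1 library lay far from the other 3 by Dixon's ratio of gap to range, where chance gives about 3. Drd2 in Heroin-SA replicate 3 was at 52.1 FPKM, below the other libraries at 65.8 to 67.5 FPKM. Drd3 in LPS-Saline replicate 3 was at 4.39 FPKM, with the others at 1.40 to 1.82 FPKM. Foxp1 was high in Saline-Saline replicate 3, at 26.5 FPKM against 14.8 to 16.3 FPKM, and in Saline-SA replicate 3, at 28.3 FPKM against 18.0 to 19.6 FPKM. The last 3 of these libraries also had the lowest Slc17a7 of their groups, 91.2, 73.8 and 40.8 FPKM, and its part in these values was not tested. No gene was flagged for an effect that differed between groups.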

How the results depend on the processing

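Calls and directions named neither here nor in the report were kept under the other pseudocounts, filters, scalings and fits, except that limma-voom put Meis2 below 1.3-fold in Saline-SA against Saline-Saline (0.35). Of the 10 genes, the cortical list as covariate, added after seeing the data, called 1 in LPS-Saline against Saline-Saline (Tac1) and 0 in LPS-Heroin against Saline-Saline. The latter fit cannot tell the list from the treatment. Calling by adjusted p in limma gave 0 in LPS-Heroin and 3 in Saline-SA, each against Saline-Saline. Leaving out 1 library each gave 0 to 2 calls in LPS-Saline and in Saline-Heroin, 0 to 1 in LPS-Heroin and 2 to 7 in Saline-SA, each against Saline-Saline, 0 to 1 for LPS averaged over heroin and 0 to 2 for the interaction. The replicate block changed the call in LPS-Heroin against LPS-Saline to 1 (Isl1), and no other count of calls among the 10 genes. Deviations of same-numbered rats correlated at r = -0.03 to 0.15 in that comparison. With whole lists, the direct minus indirect difference was 0.0031 in Heroin-SA against Saline-SA and 0.0011 in Saline-SA against Saline-Saline. After centring on the shared spiny neuron list, r was 0.17 for Drd1 and Drd2, 0.23 for Drd1 and Drd3, -0.22 for Drd1 and Isl1 and -0.37 for Drd2 and Isl1. In Saline-SA against Saline-Saline, 1281 genes were called higher and 2164 lower, but 1850 and 1799 with equal medians, 1990 and 1718 on non-mitochondrial reads, 1676 and 1858 after quantile normalization, 934 and 2607 by limma-voom and 148 and 4916 after centring. With 4 rats per group, and 9 to 84 reads for Drd3, modest differences could go undetected.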

Other observations

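The remaining dopamine receptor genes were near the limit of these libraries. Drd5, which encodes the other D1-like receptor, was at 0.255 to 1.65 FPKM and was called in none of the comparisons. Drd4 was listed at 0 in all 8 libraries of Saline-Saline and Saline-Heroin and reached at most 0.563 FPKM, in Saline-SA replicate 4, and it was below the filter for testing.

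In Heroin-SA against Saline-SA, where 5.44% of all genes were called, 1 of 6 tested markers of striatal interneurons was called. It was the choline acetyltransferase gene Chat, lower (log2 fold change -0.59, adjusted p = 0.398 in limma), and 3 of the 6 were higher. In Saline-SA against Saline-Saline, where 14.3% of all genes were called lower, 1 of 6 was called. It was Nos1, of nitric oxide synthase interneurons, lower (-0.98, adjusted p = 0.00405 in limma), and 4 of the 6 were higher.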
